A study of Mus musculus with 9 samples.

Results

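The genes of 10 surface antigens used to recognize or sort mesenchymal stromal and progenitor cells, Ly6a, Thy1, Cd34, Nt5e, Eng, Cd44, Vcam1, Mcam, Alcam, and Cd200, were followed through untreated osteoblasts, SB216763-treated osteoblasts, and endothelial cells (ECs). They were taken by name from a table of 50686 genes, with the treated-against-control change in view, since the large increase of Cd200 was among the reasons for the choice. That contrast is therefore a description for these genes, and Cd200 is described and not tested throughout. All 10 genes were in the table. A filter on low counts left 15531 genes, 9 of the 10 among them. Thy1 did not pass it.

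The osteoblasts were MC3T3-E1, an established mouse line of calvarial preosteoblasts, so every treated and control library came from a single line. One group was untreated, with its time in culture not stated. The second group received 10 µM SB216763, which blocks the kinase GSK3, for 14 days. The third group was mouse pulmonary ECs without treatment, isolated by fluorescence-activated cell sorting with a gate that, like the age of the mice, is not given for these libraries, and they are a different cell source from MC3T3-E1. Whether the treated osteoblasts were sorted before RNA extraction is not stated. There were 3 RNA-Seq libraries in each group, and nothing in the labels says whether they came from separate cultures or animals, so p-values measure the spread between these libraries, which may be technical.

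Cultured stromal cells are commonly defined by the presence of CD105 (endoglin), CD73 (the ecto-5'-nucleotidase encoded by Nt5e), and CD90 (THY1) and by the absence of hematopoietic antigens, with CD34 listed among the latter for human cells. In the mouse, SCA-1 (the product of Ly6a) and CD34 also mark many stromal and hematopoietic progenitors. None of these antigens belongs to stromal cells alone, as CD34, endoglin, CD146 (encoded by Mcam), and SCA-1 are also well-known antigens of ECs, and CD200 is found on ECs and neurons.

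The libraries held 30990107 to 68946333 counts, so that 3 counts, the smallest number treated as detection in a library, corresponded to 0.0473 to 0.104 CPM (counts scaled to library size by the TMM method). No 2 libraries of a group agreed within sampling noise, with a chi-square per gene of 2.93 to 110 between replicates. The 8 endothelial markers summed to 2.69 to 3.40 CPM in control libraries, 2.68 to 3.12 in treated libraries, and 6746 to 6913 in EC libraries, and no marker of that list was at 0 throughout a group. The 8 osteoblast markers summed to 20155 to 28751, 2854 to 3003, and 29.2 to 38.6 CPM in the same order. The 11 hematopoietic markers summed to at most 5.09 CPM in any library. The defining leukocyte gene Ptprc averaged 0.0745, 0.154, and 0.0915 CPM in controls, treated osteoblasts, and ECs, and Cd3e was at 0 in every library. The 5 epithelial markers stayed at or under 0.435 CPM in sum. The mural and fibroblast list, led by the collagen gene Col1a2, summed to 27368 to 34150 CPM in controls, 6372 to 6499 in treated osteoblasts, and 42.4 to 53.6 in ECs.

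Promoter windows of 300 bases, 250 before and 50 after the annotated start, were found in RefSeq on GRCm38.p6 for 7 of the 10 genes: Cd34, Nt5e, Eng, Mcam, Cd44, Cd200, and Alcam. The windows of Cd200 and Alcam are shown because these antigens lie on the same chromosome and both had higher levels in the treated libraries, Cd200 from near the limit of detection and Alcam from an existing level. Both are read 5′ to 3′ on the minus strand, the Cd200 window at chr16:45409004-45409303 and the Alcam window at chr16:52453032-52453331. Capitals mark CpG dinucleotides.
Cd200: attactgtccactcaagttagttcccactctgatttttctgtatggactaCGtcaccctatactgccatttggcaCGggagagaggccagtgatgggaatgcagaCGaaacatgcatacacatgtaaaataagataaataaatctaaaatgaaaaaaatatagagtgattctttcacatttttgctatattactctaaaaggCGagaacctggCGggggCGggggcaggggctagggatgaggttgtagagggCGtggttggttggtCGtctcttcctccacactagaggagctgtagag
Alcam: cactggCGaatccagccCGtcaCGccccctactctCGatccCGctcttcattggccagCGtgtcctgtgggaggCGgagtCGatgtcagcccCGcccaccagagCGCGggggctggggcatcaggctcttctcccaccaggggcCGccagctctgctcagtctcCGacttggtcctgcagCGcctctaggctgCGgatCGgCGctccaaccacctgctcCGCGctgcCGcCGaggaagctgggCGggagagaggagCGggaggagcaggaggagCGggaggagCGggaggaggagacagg
The Cd200 window had a GC content of 45.0% and 8 CpG dinucleotides, whereas the Alcam window had 69.7% and 25. Across the 32851 windows of that length in RefSeq, the median was 52.7% GC and 7 CpG dinucleotides. The other windows ran from 50.0% GC for Cd34 to 72.7% for Mcam, and from 6 CpG dinucleotides for Eng and Cd44 to 29 for Mcam. The letters CTTTGAT and CTTTGAA, the core bound by T cell factors, were searched on both strands, and neither was found in any of the 7 windows. One or the other was present in 8.65% of all windows.

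SCA-1 and CD34 are the progenitor antigens of the group, and both transcripts were lower in treated osteoblasts than in controls and far higher in ECs. Ly6a encodes a small GPI-anchored protein and lies on chromosome 15 from 74994877 to 74998031, minus strand (GRCm38, ENSMUSG00000075602.10). Its levels were 37.9, 47.5, and 43.3 CPM in the control libraries, 1.95, 2.11, and 1.96 CPM in the treated libraries, and 549, 546, and 531 CPM in the EC libraries. The 3 groups did not overlap, and the treated libraries were 21.3-fold below the controls (log2 fold change -4.41, SE 0.096). ECs had 12.7-fold more than controls (log2 fold change 3.66, SE 0.069, edgeR adjusted p = 5.6e-17) and 269-fold more than treated osteoblasts (log2 fold change 8.07, SE 0.096, edgeR adjusted p = 2.3e-19). In bulk RNA libraries, fewer cells with a transcript and less of it per cell cannot be told apart. Ly6a has close relatives, and 19.0% of the 50-base windows of its transcripts occur identically in I830127L07Rik, Ly6c1, Ly6c2, or Ly6i, whereas 1.45% of the 100-base windows do so, all with Ly6c1. How the counting treated such reads, or whether it left them out, is not given in the sources used here.

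Cd34, a sialomucin on chromosome 1 from 194938819 to 194961279, plus strand (ENSMUSG00000016494.9), had a smaller difference in the same direction. It measured 50.3, 56.9, and 55.2 CPM in controls, 29.6, 33.3, and 28.1 CPM in treated osteoblasts, and 916, 914, and 927 CPM in ECs. Treated libraries lay below all controls, by a log2 fold change of -0.83 (SE 0.064). The EC level exceeded that of controls by 4.09 on the log2 scale (SE 0.067, edgeR adjusted p = 9.8e-18) and that of treated osteoblasts by 4.92 (SE 0.071, edgeR adjusted p = 2.0e-18). A stretch of 148 exonic bases overlaps Gm16897 on the opposite strand, and without a stated strand setting reads there cannot be assigned to one of the pair.

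Thy1, encoding the GPI-anchored glycoprotein CD90, was near the limit of detection in all groups. It lies on chromosome 9 from 44043384 to 44048579, plus strand (ENSMUSG00000032011.5). The controls held 22, 14, and 9 counts (0.347, 0.255, and 0.313 CPM), the treated libraries 3, 5, and 8 counts (0.0860, 0.130, and 0.218 CPM), and the EC libraries 0 counts each. The treated libraries were again below the controls without overlap. Against the mean EC limit of 3 counts a library, 0.0765 CPM, Thy1 was at least 3.98-fold higher in controls and at least 1.89-fold higher in treated osteoblasts, where 2 of 3 libraries exceeded 3 counts. These values set an osteoblast mean against the EC limit, and they include neither the counting error of the osteoblast counts nor their spread between libraries.

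**Figure D1:**
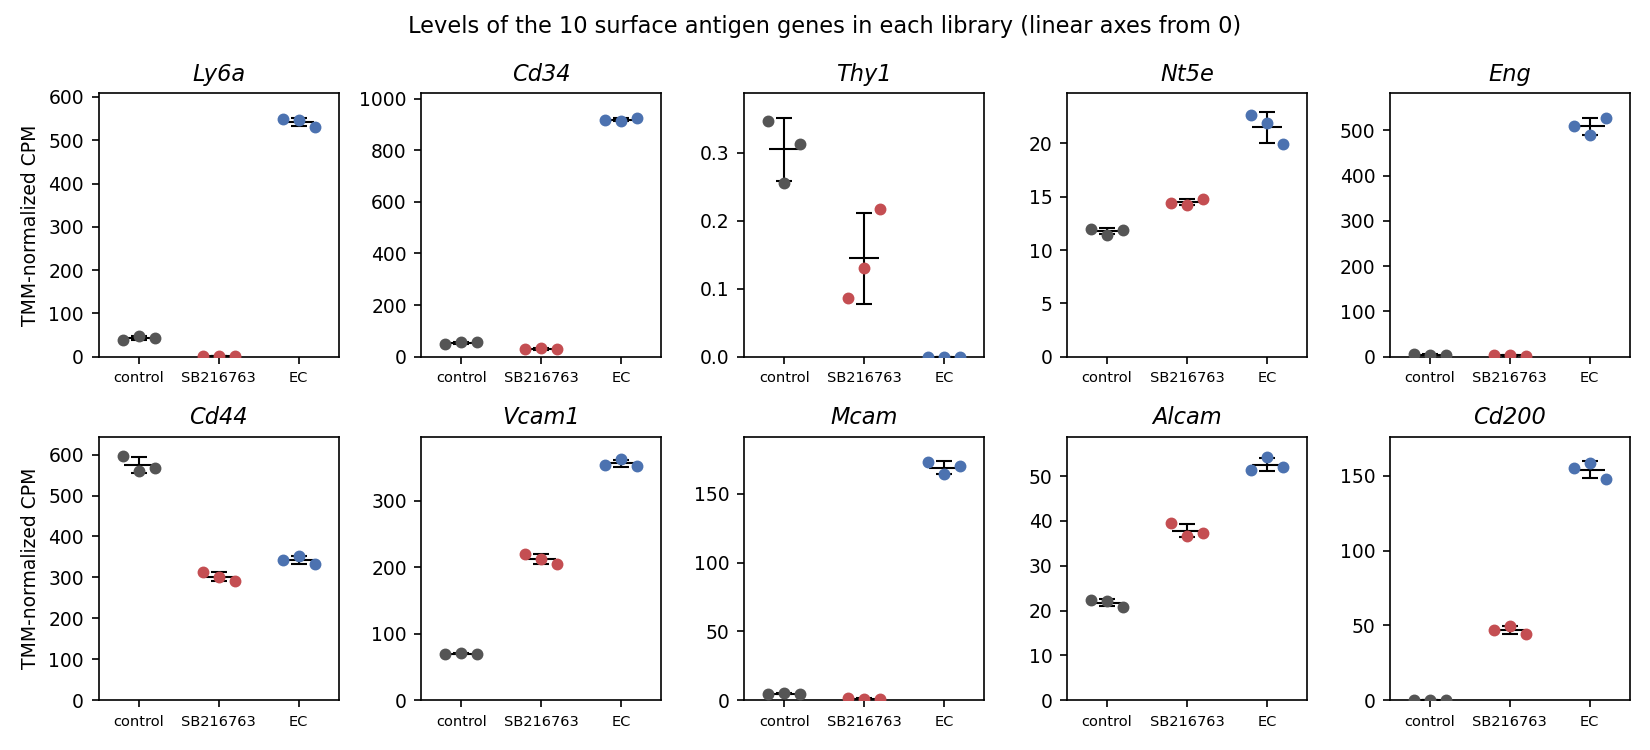
TMM-normalized CPM of each of the 10 antigen genes (linear vertical axes from 0, each panel with its own scale) in the 3 libraries of the control, SB216763, and EC groups; points are libraries, and black bars show the mean and the SD. Ly6a lies near 0 in the treated libraries, at 1.95 to 2.11 CPM, against 531 to 549 in ECs, Cd200 went from 0.0546 to 0.243 CPM in controls to 44.0 to 49.6 in treated osteoblasts, and Cd44 had its highest values, 559 to 597 CPM, in controls.

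Nt5e, Eng, and Cd44 encode antigens by which cultured stromal cells are commonly recognized, and their levels did not move together. Nt5e encodes CD73, which converts extracellular AMP to adenosine, and lies on chromosome 9 from 88327197 to 88372092, plus strand (ENSMUSG00000032420.8). The controls had 12.0, 11.4, and 11.9 CPM, the treated libraries 14.4, 14.3, and 14.8 CPM, and the ECs 22.7, 21.9, and 19.9 CPM. All treated libraries exceeded all controls by a small margin, with a log2 fold change of 0.30 (SE 0.064), the smallest among the 9 tested genes. ECs were above controls by 0.87 (SE 0.062, edgeR adjusted p = 1.8e-09) and above treated osteoblasts by 0.57 (SE 0.062, edgeR adjusted p = 3.5e-07) on the log2 scale, neither of which reached the required difference of 2.

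Endoglin, a co-receptor of TGF-β and BMP ligands, was a low transcript in MC3T3-E1 cells and an abundant transcript in ECs. Eng lies on chromosome 2 from 32646595 to 32682669, plus strand (ENSMUSG00000026814.16). The 3 controls had 4.82, 4.48, and 4.27 CPM, the 3 treated libraries 2.81, 2.87, and 2.26 CPM, and the 3 EC libraries 509.8, 490.2, and 527 CPM. Treatment was accompanied by a log2 fold change of -0.79 (SE 0.095), without overlap between the groups. ECs stood 111-fold above controls (log2 fold change 6.80, SE 0.071, edgeR adjusted p = 6.3e-20) and 192-fold above treated osteoblasts (log2 fold change 7.59, SE 0.077, edgeR adjusted p = 5.7e-20).

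Cd44 encodes the main receptor for hyaluronan and was the only gene of the 10 apart from Thy1 with its highest level in controls. The gene is on chromosome 2 from 102811141 to 102901665, minus strand (ENSMUSG00000005087.17), and its splice forms were not separated by the gene counts. Its levels were 597, 559, and 566 CPM in controls, 314, 301, and 292 CPM in treated osteoblasts, and 342, 353, and 332 CPM in ECs. The treated level was 1.90-fold below the controls (log2 fold change -0.93, SE 0.049). ECs were also below controls, by a log2 fold change of -0.75 (SE 0.048, edgeR adjusted p = 6.0e-10). The EC and treated libraries did not overlap either but differed by a log2 fold change of 0.18 (SE 0.048, edgeR adjusted p = 0.0026), and over the alternatives the adjusted p ran from 2.9e-05 with DESeq2 to 0.043 with scaling by library size alone and 0.056 when no genes were filtered.

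Vcam1, Mcam, Alcam, and Cd200 belong to the immunoglobulin superfamily of cell surface proteins, and 3 of the 4 had higher levels in treated osteoblasts than in controls. Vcam1, the adhesion molecule bound by the integrin α4β1, lies on chromosome 3 from 116109949 to 116129688, minus strand (ENSMUSG00000027962.14). Its values were 69.6, 70.3, and 69.7 CPM in controls, 219, 213, and 205 CPM in treated osteoblasts, and 353, 362, and 353 CPM in ECs. The treated libraries were 3.04-fold above the controls (log2 fold change 1.60, SE 0.044), and the groups were apart. ECs exceeded controls by 2.35 (SE 0.045, edgeR adjusted p = 5.7e-17) and treated osteoblasts by 0.75 (SE 0.042, edgeR adjusted p = 8.8e-11) on the log2 scale, with only the former past the required difference of 2.

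Alcam encodes CD166, a homophilic adhesion molecule, and lies on chromosome 16 from 52248996 to 52454074, minus strand (ENSMUSG00000022636.13). In controls it measured 22.3, 22.2, and 20.8 CPM, in treated osteoblasts 39.5, 36.7, and 37.3 CPM, and in ECs 51.4, 54.2, and 52.0 CPM. Treated libraries exceeded controls by a log2 fold change of 0.79 (SE 0.049). The EC level was higher than that of controls by 1.27 (SE 0.048, edgeR adjusted p = 5.1e-13) and higher than that of treated osteoblasts by 0.47 (SE 0.047, edgeR adjusted p = 1.0e-07) on the log2 scale, and neither difference reached 2.

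Mcam encodes CD146, an adhesion molecule of ECs and pericytes, and went the other way. It lies on chromosome 9 from 44134469 to 44142727, plus strand (ENSMUSG00000032135.15), 85.9 kb from Thy1. The control libraries had 4.71, 4.93, and 4.45 CPM, the treated libraries 1.38, 1.20, and 1.03 CPM, and the EC libraries 173, 164, and 170.0 CPM. All treated libraries were below all controls, 3.93-fold on average, with a log2 fold change of -1.98 (SE 0.10). This value lay just inside -2, and it was -2.01 without control replicate 3 and -2.08 without treated replicate 1. ECs were above controls by 5.16 (SE 0.059, edgeR adjusted p = 1.6e-19) and above treated osteoblasts by 7.13 (SE 0.074, edgeR adjusted p = 7.0e-20) on the log2 scale.

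Cd200, which encodes a ligand that restrains myeloid cells through the CD200 receptor, had the largest difference of the group between treated and control osteoblasts, as its choice implies. It lies on chromosome 16 from 45382135 to 45409053, minus strand (ENSMUSG00000022661.14), 6839942 bases from Alcam. The control libraries held 9, 3, and 7 counts, or 0.142, 0.0546, and 0.243 CPM. The treated libraries reached 47.0, 49.6, and 44.0 CPM, and the EC libraries 156, 159, and 148 CPM. Every treated library was thus far above every control and below every EC library. Pooled over libraries, 5161 counts in the treated group against 19 in the controls gave a 364-fold difference, with a 95% exact binomial interval of 233 to 604 that covers counting error only. The fitted log2 fold change was 8.47 (SE 0.14) for treated against control osteoblasts, 10.19 (SE 0.13) for ECs against controls, and 1.72 (SE 0.062) for ECs against treated osteoblasts. Each SE is the log2 fold change divided by the square root of the F statistic. In both contrasts with controls it understates the error, as the interval from counting alone is wider than it implies. No 50-base window of the transcripts of Cd200, Mcam, Cd44, or Thy1 occurred in another annotated gene, and for Nt5e, Eng, Vcam1, and Alcam the share was at most 0.465%. For Cd34 it was 2.14%, with 27 genes.

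A gene was called when its log2 fold change was at least 2 in size with a false discovery rate under 0.01. Between treated and control osteoblasts, 1 of the 9 genes was past this threshold upward (Cd200) and 1 downward (Ly6a), where 3.81% of all genes tested were called higher and 5.84% lower. With a required log2 fold change of 1, 2 were past it upward (Cd200 and Vcam1) and 2 downward (Ly6a and Mcam), where 11.1% of all genes were called higher and 13.0% lower. As this contrast was in view when the genes were chosen, nothing is read from these counts. Between ECs and controls, 5 of the 8 tested genes other than Cd200 were called higher in ECs (Ly6a, Cd34, Eng, Vcam1, and Mcam), against 13.5% of all genes. None was called lower by edgeR, limma-voom, or DESeq2, against 9.87% of all genes by edgeR, and 1, Cd44, was lower at an unadjusted p under 0.05. By the false discovery rate alone, 7 of 8 were higher, against 39.0% of all genes, and 1 was lower, Cd44, against 37.9%. Between ECs and treated osteoblasts, 4 of 8 were called higher in ECs (Ly6a, Cd34, Eng, and Mcam), against 15.0% of all genes. None was called lower by any of the 3 tools, against 10.3% by edgeR, and none was lower at an unadjusted p under 0.05. The false discovery rate alone put 8 of 8 higher, against 40.3% of all genes, and 0 lower, against 38.3%. Thy1, at 0 counts in every EC library, did not pass the filter and is not in these counts. Without a filter, which let Thy1 in, 1 antigen was called lower in ECs in both comparisons. Both comparisons use the same EC libraries, and each shares its osteoblast libraries with the treated-against-control contrast. The antigens were chosen with earlier results of these data known. SCA-1, CD34, endoglin, and CD146 are also well-known EC antigens, so the counts against ECs only describe these genes.

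**Figure D2:**
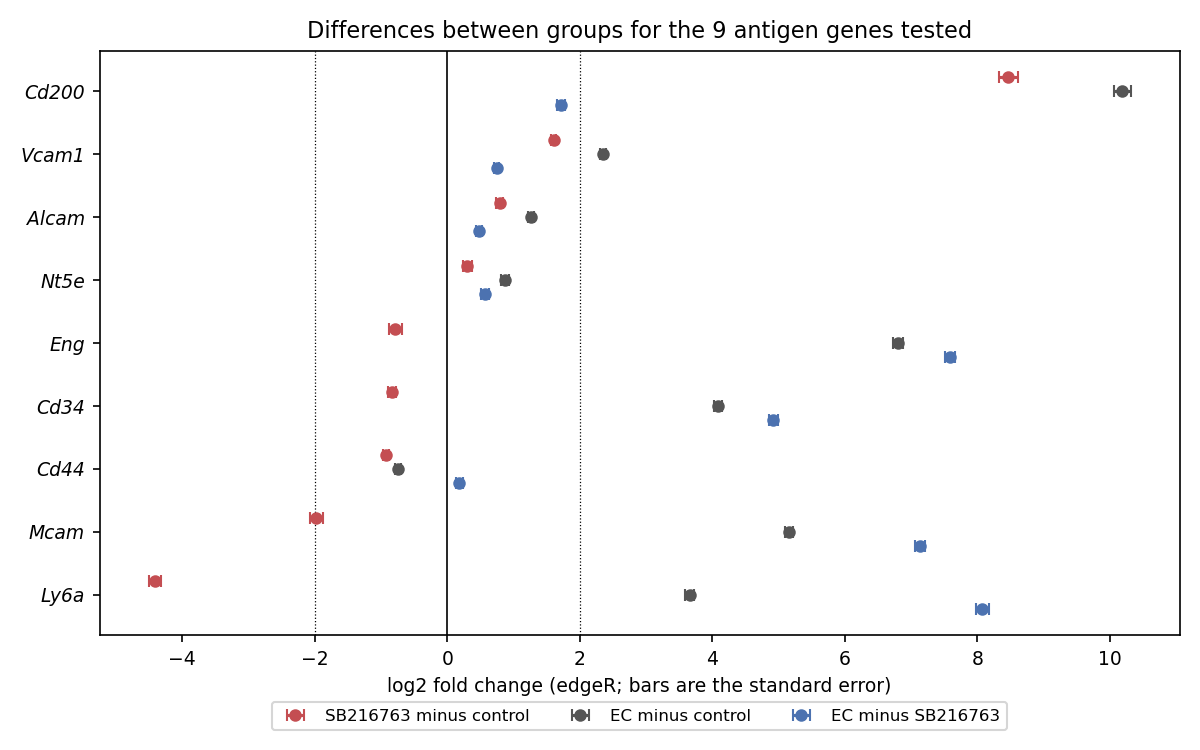
Log2 fold changes (horizontal axis) from edgeR for the 9 antigen genes tested, ordered by treated minus control, in 3 contrasts that share libraries. Bars are the SE, the log2 fold change over the square root of the F statistic, and can be too short at low counts. Dotted lines mark -2 and 2. Ly6a (-4.41) and Cd200 (8.47) lie outside the dotted lines in treated minus control, and for Ly6a, Mcam, Cd34, and Eng the points of both EC contrasts lie right of 2.

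Sorted by the order of the group levels, the 10 genes fell into 4 patterns, none with overlapping groups. The share of all genes without overlap was not computed, so nothing is read from this separation, here or where it is given for single genes above. By the false discovery rate alone, 39.0% of all genes were higher in ECs than in controls and 37.9% lower. Nt5e, Vcam1, Alcam, and Cd200 were lowest in controls, intermediate in treated osteoblasts, and highest in ECs. Ly6a, Cd34, Eng, and Mcam were lowest in treated osteoblasts and highest in ECs. Cd44 was lowest in treated osteoblasts and highest in controls, and Thy1 was at 0 in ECs and highest in controls. As a description over the 9 libraries, which share their group and depth, log2 CPM of Cd34 and Eng had a Pearson correlation of 0.997, Vcam1 and Alcam of 0.996, and Vcam1 and Cd200 of 0.985. The lowest coefficient was -0.93, between Cd44 and Cd200.

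Compared per kilobase of exon, Cd44 had the highest mean level of the 10 genes in both osteoblast groups and Ly6a in ECs, and the same held per kilobase of the longest transcript and of the coding part. In controls Cd44 had 84.7 ± 3.0 CPM per kb (SD, n = 3), 59.4% of the sum of the 10 genes. Ly6a followed at 35.6 ± 4.0 CPM per kb, then Vcam1 at 7.87, Cd34 at 7.43, and Alcam at 3.06 CPM per kb. Mcam at 1.40 and Nt5e at 1.37 CPM per kb overlapped between libraries, Eng was at 1.12, and Thy1 at 0.10 and Cd200 at 0.044 CPM per kb were last. In treated osteoblasts Cd44 was again first at 44.6 ± 1.6 CPM per kb, or 46.2% of the sum, but Vcam1 (23.9 ± 0.82 CPM per kb) and Cd200 (14.1 ± 0.85 CPM per kb) came next. Alcam had 5.31 and Cd34 4.16 CPM per kb there, Nt5e and Ly6a overlapped at 1.69 and 1.67, and Eng, Mcam, and Thy1 were at 0.65, 0.36, and 0.048 CPM per kb. Ly6a thus held 24.9% of the sum in controls and 1.73% in treated osteoblasts, whereas Cd200 held 0.031% and 14.6%.

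In ECs Ly6a reached 450 ± 7.9 CPM per kb (SD, n = 3), 50.0% of the sum and higher than 99.7% of 15504 genes ranked. Cd34 and Eng overlapped at 126 CPM per kb each, and Cd44 and Mcam overlapped at 50.5 and 50.4. Cd200 (46.4), Vcam1 (40.1), Alcam (7.38), and Nt5e (2.5 CPM per kb) followed in this order. The summed level of the 10 genes was 143 CPM per kb in controls, 96.5 in treated osteoblasts, and 899 in ECs. Other ranks depended on the length used, as the exons of Cd34 add up to 7290 bases but its longest transcript has 3063. Per kilobase of the longest transcript, Cd44 at 53.8 and Vcam1 at 51.9 CPM per kb overlapped in treated osteoblasts, with 36.1% and 34.9% of the sum. In ECs Cd34 was then above Eng, at 299.9 against 149 CPM per kb, and held 23.1% of the sum, compared with 14.0% by exons and 26.6% by coding length. Vcam1 moved in ECs from rank 7 to rank 4, ahead of Cd200, Cd44, and Mcam. The levels of one gene in different groups have the same length, so their ratios do not depend on it.

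**Figure D3:**
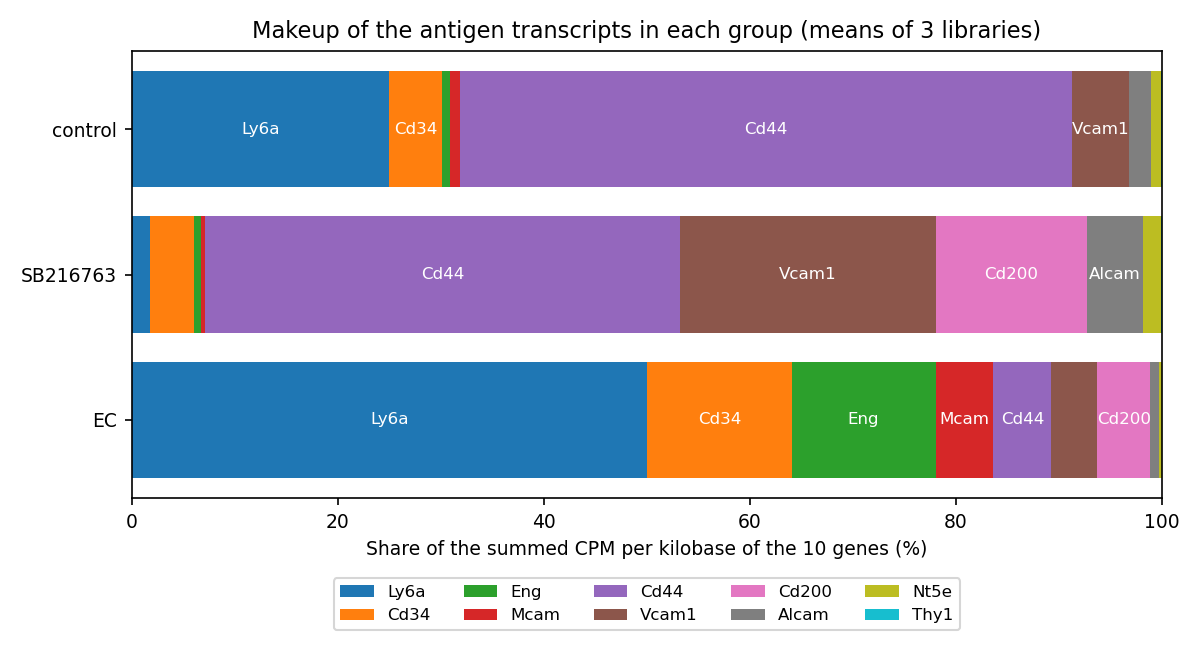
Share of each antigen gene in the summed CPM per kilobase of the 10 genes (exon length; horizontal axis, in percent; means of 3 libraries) in each group. Cd44 makes up 59.4% in controls and 46.2% in treated osteoblasts, and Ly6a makes up 24.9%, 1.73%, and 50.0% in controls, treated osteoblasts, and ECs.

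A list of 34 other antigens used for stromal and progenitor cells, all of them tested, was compared between treated and control osteoblasts. In it 6 genes were called higher and 4 lower, 10 of 34, where 3.81% and 5.84% of all genes were called. The median log2 fold change was 0.55 against 0.014 over all genes, and 0.54 with Icam1 at its bound and Kit, at or below detection in both groups, left out. The list was chosen with earlier results of these data known, so the numbers called only describe it. Enpep, Fap, Ngfr, and Bst1 had too few control counts for the filter and passed it only through groups where they were higher. Icam1 passed it only through ECs. Mme, Enpep, and Fap, among those that rose, encode membrane peptidases. Mme, the neutral endopeptidase CD10, went from 53.7, 44.5, and 48.3 CPM to 3168, 2995, and 2978 CPM (log2 fold change 5.96, SE 0.078, edgeR adjusted p = 1.2e-17). The ECs had 16.4 ± 0.54 CPM of it (SD, n = 3), so the treated libraries stood above both other groups. Enpep, encoding aminopeptidase A, went from a mean of 0.0698 to 5.84 CPM, and Fap, encoding fibroblast activation protein, from 0.115 to 1.46 CPM, with ECs at 0.0432 and 0 CPM. The controls held 1, 3, and 4 counts of Enpep and 6, 8, and 3 of Fap, so these starting levels rest on few counts. In contrast Anpep, encoding aminopeptidase N, had 28.6 ± 4.5 and 27.2 ± 0.94 CPM (SD, n = 3; edgeR adjusted p = 0.54).

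Of the other called antigens, the laminin receptor subunit gene Itga6 rose from 9.72, 9.01, and 9.86 CPM to 54.0, 55.1, and 55.3 CPM, with 387 CPM in ECs. Ngfr, the low-affinity neurotrophin receptor CD271 used to enrich marrow stromal cells, rose from 0.103 to 1.11 CPM. Bst1, an ADP-ribosyl cyclase, rose from 0.0726 to 0.996 CPM and had 198 CPM in ECs. Control counts were few for both, at 5, 5, and 4 for Ngfr and 7, 4, and 1 for Bst1. Among those that fell, the collagen receptor subunit gene Itga1 went from 49.6, 41.7, and 48.9 CPM to 6.45, 7.09, and 7.03 CPM. Cspg4, the proteoglycan NG2 of pericytes, had 41.0, 23.0, and 35.6 CPM in controls, a wide spread, and 3.24, 2.63, and 3.54 CPM in treated osteoblasts. Susd2, a marker of perivascular stromal cells of the endometrium, went from 1.62 to 0.148 CPM. Icam1, an adhesion molecule bound by β2 integrins, was at a mean of 0.114 CPM in controls and 0 in the 3 treated libraries, which bounds the difference at 1.39-fold or more against 3 counts a library, so its call rests on very few counts.

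Some of the most abundant antigens of the list were not called. Itgb1, with the highest CPM of the list in controls, had 1149 ± 29 CPM there and 947 ± 20 in treated osteoblasts (SD, n = 3; log2 fold change -0.28). Cdh11, osteoblast cadherin, had 972 ± 51 CPM in controls and 3080 ± 160.2 in treated osteoblasts (SD, n = 3; log2 fold change 1.66), and Pdgfrb, the PDGF receptor of mesenchymal cells, 254 ± 21 and 746 ± 7.8 CPM (log2 fold change 1.56). N-cadherin (Cdh2), with 119 ± 8.3 and 30.1 ± 1.5 CPM, lay at a log2 fold change of -1.99, next to the threshold.

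**Figure D4:**
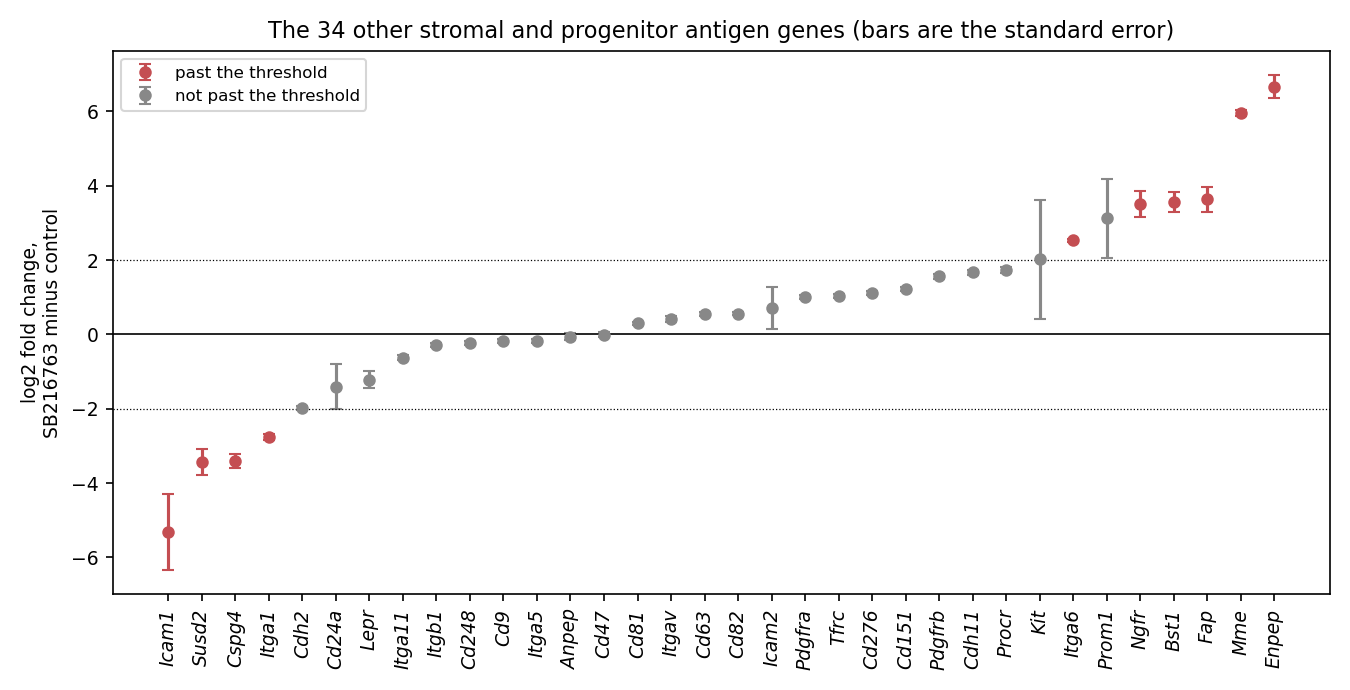
Log2 fold changes of treated minus control osteoblasts from edgeR for the 34 other stromal and progenitor antigen genes, in rank order. Bars are the SE, the log2 fold change over the square root of the F statistic, and can be too short at low counts. Dotted lines mark -2 and 2. Red points are the 6 genes called higher and the 4 called lower; the Icam1 value is a fitted value with all treated libraries at 0 counts.

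The ligands, receptors, and enzymes that work with the antigens were gathered in 7 lists with 73 genes, 72 of them in the table and 48 tested. In treated against control osteoblasts 6 were called higher and 5 lower, 22.9% of those tested, where 3.81% and 5.84% of all genes were called. Leaving out 3 genes at or under detection, the median log2 fold change was 0.0055. The lists and the antigens were assembled with earlier results of these libraries known, so these counts describe them. Enpp1, called higher, passed the filter only through the treated libraries.

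For VCAM1 and THY1, the partner integrin genes were called in both directions. Itga4, the classical VCAM1 receptor subunit, was near the limit of detection in MC3T3-E1 cells, at 0.0858 and 0.136 CPM in controls and treated osteoblasts, and at 95.7 CPM in ECs. Itga9, a second VCAM1 receptor subunit, fell from 40.2, 37.5, and 42.1 CPM to 7.28, 6.65, and 6.86 CPM (log2 fold change -2.52, edgeR adjusted p = 1.7e-14). Itgb3, which pairs with αv to bind THY1, rose from 20.2, 18.2, and 19.3 CPM to 113, 112, and 117 CPM (log2 fold change 2.57, edgeR adjusted p = 4.2e-16), and Itgb2, the leukocyte β2 subunit, from 0.337 to 3.53 CPM (edgeR adjusted p = 5.9e-11).

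Around CD44, the hyaluronan synthase gene Has2 fell from 26.2, 26.7, and 25.7 CPM to 1.23, 0.938, and 1.50 CPM (log2 fold change -4.42, SE 0.11, edgeR adjusted p = 6.8e-15). A pair of genes of that list rose. Spp1, encoding osteopontin, a CD44 ligand, went from 203, 224, and 204 CPM to 4637, 4679, and 4352 CPM (log2 fold change 4.44, edgeR adjusted p = 2.3e-17), and Mmp14, encoding a membrane metalloproteinase that cleaves CD44, from 581 to 2661 CPM (log2 fold change 2.19, edgeR adjusted p = 4.1e-15). The ECs had 26.7 and 42.9 CPM of these genes. Ezrin, which links CD44 to actin, was at 104 ± 2.9 and 103 ± 0.52 CPM (SD, n = 3).

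In the adenosine pathway of CD73, genes of enzymes and receptors beside Nt5e were called in both directions. Enpp1, which produces AMP and pyrophosphate from ATP, rose from 0.138 to 8.26 CPM (edgeR adjusted p = 1.3e-12), and Adora2b, an adenosine receptor gene, from 0.481 to 4.03 CPM (edgeR adjusted p = 4.3e-10). Enpp1 had only 7, 11, and 3 counts in the controls. Alpl, encoding the tissue-nonspecific alkaline phosphatase that is also an osteoblast marker, fell from 36.3, 34.7, and 31.0 CPM to 0.373, 0.678, and 0.354 CPM (log2 fold change -6.17, SE 0.13, edgeR adjusted p = 9.0e-16). Entpd1 (CD39), which forms AMP upstream of CD73, was at 0.0386 and 0.0277 CPM in the osteoblast groups and at 109 CPM in ECs.

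The 11 tested ligands, receptors, and mediators of endoglin had log2 fold changes between -1.79 (Tgfb2, 90.9 to 26.3 CPM) and 1.77 (Tgfbr3, encoding betaglycan, 23.4 to 79.6 CPM), all inside the threshold. Acvrl1, the endothelial type I receptor ALK1, had 0.305, 0.274, and 705 CPM in controls, treated osteoblasts, and ECs. In the list of the CD34 family and L-selectin ligands, Podxl had 0.323, 0.307, and 619 CPM and Emcn 0.222, 0.222, and 604 CPM in the same order. These sialomucins were thus near the limit of detection in both osteoblast groups. The receptors of CD200 and of ALCAM in leukocytes, Cd200r1, Cd200r2, Cd200r3, Cd200r4, and Cd6, did not pass the filter, and the 5 genes together stayed at or under 0.16 CPM in every library.

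Of the Ly6 family, 7 genes were tested. Ly6c1, the nearest tested gene on the higher-coordinate side of Ly6a at 45986 bases, fell from 12.8, 14.9, and 13.2 CPM to 1.18, 1.59, and 1.31 CPM (log2 fold change -3.32, SE 0.099, edgeR adjusted p = 5.6e-14) and had 205 CPM in ECs. Ly6f fell from 0.949 to 0.0451 CPM (edgeR adjusted p = 3.5e-08), with 1.86 CPM in ECs. Its treated libraries held 1, 2, and 2 counts. Ly6e, a broadly expressed member, had 65.1 ± 3.1 and 50.4 ± 3.8 CPM (SD, n = 3) and was not called. Ly6i, at 11446 bases on the other side, had 0 counts in all osteoblast libraries and 0.686 CPM in ECs. Whether reads that fit both Ly6a and Ly6c1 were counted is not stated, so their part in the levels of this pair is uncertain.

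The nearest tested protein-coding genes beside other antigen genes included genes called higher in treated osteoblasts. Btla, an inhibitory receptor gene of lymphocytes 124464 bases from Cd200, went from 0.0232 to 1.06 CPM (edgeR adjusted p = 7.7e-08), and Nfkbiz, an IκB family gene 3357300 bases from Alcam, from 4.25 to 18.6 CPM (edgeR adjusted p = 1.2e-12). The control mean of Btla was under the limit of detection. Cbl, 248 bases from Mcam, had 55.1 ± 8.6 and 50.6 ± 3.0 CPM (SD, n = 3) and was not called. Usp2 beside Thy1, Cd46 and Plxna2 beside Cd34, Snx14 and Tbx18 beside Nt5e, and Cdk9 and Ak1 beside Eng had log2 fold changes between -0.21 and 0.41.

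Among 10250 tested genes with a mean of at least 10 CPM in a group, those with the profile most like each antigen gene were named by the Pearson correlation of log2 CPM over the 9 libraries. For Cd200 these were the clock gene Per2 (0.999), the receptor gene Notch1 (0.998), and the adapter gene Sh2b3 (0.997). Notch1 had 18.3 ± 3.1, 137 ± 12, and 221 ± 11 CPM in controls, treated osteoblasts, and ECs (SD, n = 3). For Ly6a they were Cpsf2, the growth factor gene Hbegf, and the urokinase receptor gene Plaur, all above 0.999, and Plaur had 34.2, 7.65, and 136 CPM in the groups. Mcam was most like Nox4, Ccnd1, and Dnm3, and Vcam1 most like Sft2d2, Sh3bp5, and Capn5. Cd34 had Ccnyl1, Prcp, and Gm7993, Eng had Jup, Fzd6, and Slc44a2, Nt5e had 9230114K14Rik, Uhmk1, and Nrep, Cd44 had Cdv3, Serbp1, and Lman1, and Alcam had Scarb2, Hmga2, and Rab8b. With 3 groups of 3 libraries, any gene with a like order of group means scores high on this measure.

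Several marker genes of the osteoblast lineage were also lower in the treated group, in which Ly6a and Mcam were low and Cd200 high. In treated libraries 4 of the 8 osteoblast markers were called lower, where 5.84% of all genes were, namely Sp7 (298 to 26.0 CPM), Alpl, Ibsp (152 to 11.4 CPM), and Col1a1 (24511 to 2732 CPM), while Runx2 had 158 ± 22 and 116 ± 2.4 CPM (SD, n = 3). Outside this list, Spp1, encoding osteopontin, was called higher (210 to 4556 CPM), and Cdh11, osteoblast cadherin, was higher but not called. Of the 7 tested mural and fibroblast markers, Acta2 (2915 to 144 CPM) and Col1a2 (27831 to 5322 CPM) were called lower, while Pdgfrb (254 to 746 CPM) and Des (8.02 to 9.72 CPM) had higher means in treated osteoblasts and were not called. Pecam1 had 0.759 ± 0.18 and 0.788 ± 0.20 CPM and Cdh5 0.585 ± 0.14 and 0.599 ± 0.080 CPM in controls and treated osteoblasts, against 1756 and 1794 CPM in ECs, while Cd200 and Vcam1 differed between the osteoblast groups. The part of the osteoblast and fibroblast genes in the antigen values was not tested.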

How the data were processed

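RNA-Seq reads of 9 libraries were aligned and counted per gene by the authors with STAR (2.5.3a, with GRCm38, per the submitters' processing notes), and the deposited values are raw gene counts, whole numbers without normalization. The annotation and strand setting are not given in the sources used here. The labels' treatment protocol describes 14 days of SB216763 for all samples, including those titled control and EC, whose own treatment entries read control and none. The groups follow the titles and treatment entries. Symbols were found for 50376 of 50686 identifiers, and coordinates in GENCODE M21 for 50462.

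Counts were tested with edgeR 4.0.16 in R 4.3.3 (filterByExpr, TMM, a quasi-likelihood fit of all 9 libraries, prior count 0.125). A call required a log2 fold change of 2 or more in size and an FDR (Benjamini-Hochberg) below 0.01. SE values are the size of the log2 fold change divided by the square root of the F statistic. They can be too small for large changes with few counts in a group. CPM values are TMM-normalized, log2 CPM used a prior count of 2, and levels per kilobase used the union of exons. Depth was 30990107 to 68946333 counts a library, and 3 counts were taken as the limit of detection. The code was tested on simulated data.

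The antigens and all lists were chosen with earlier results of these data known. All 10 antigens are named. From the lists, every gene called between treated and control osteoblasts and up to 3 further genes a list are named, as well as the 3 genes most correlated with each antigen and its tested neighbors. Some results under this rule are not reported here. limma-voom (limma 3.58.1), DESeq2 1.42.0, other scalings, filters, thresholds and prior counts, fits of 2 groups, a replicate block, and leaving out each library were alternatives.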

Additional observations from a re-analysis of the deposited data

How the results depend on the processing

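No log2 fold change of an antigen changed sign under any alternative. Scaling by library size alone moved the median of all genes from 0.014 to 0.22 (treated minus control) and from 0.0074 to 0.13 (EC minus control), and the antigens with it. Treated minus control then ran from -4.21 for Ly6a to 1.81 for Vcam1, with Cd200 between 8.04 and 8.81 over all alternatives. With the required log2 fold change lowered to 1, 2 antigens were called higher and 2 lower in treated osteoblasts, as were 13 and 6 of the other stromal antigens and 8 and 8 partner genes, against 11.1% and 13.0% of all genes. Leaving out single libraries, the number of antigens called lower in treated osteoblasts ranged from 1 to 2, with Mcam the second without control replicate 3 or SB216763 replicate 1. The number called lower in ECs ranged from 0 to 1 against controls and from 0 to 1 against treated osteoblasts, and it was also 1 against both without a filter and 1 against controls in a fit of the 2 groups alone, as Thy1 then passed the filter. Same-numbered libraries had correlations of deviations of -0.039 to 0.12, the highest between treated and control replicates 2. Differently numbered libraries were not compared, so whether the numbers pair libraries was not tested. With a replicate block 1 antigen was called higher and 1 lower in treated osteoblasts, as without it. Low counts limit Thy1 and the control level of Cd200. They also limit the control levels of Enpep, Fap, Ngfr, Bst1, Enpp1, Btla, and Icam1 and the treated levels of Ly6f and Susd2.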
